A study of Mus musculus with 2 samples.

Results

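The genes described here encode the proteins of the cytosolic ribosome. They were chosen by symbol: names starting with Rpl or Rps and a digit, without the Rps6k kinases and the numbered -ps pseudogenes, plus Rpsa, Rplp0, Rplp1, Rplp2, Gm10260 and Gm10076. The rule found 88 of the 32285 genes in the files. Of these, 77 are the main genes of the large subunit (46) and the small subunit (31), 9 are minor paralogs or symbols that only look alike, and 2 are the single-exon copies Gm10260 and Gm10076. The choice used results of these same libraries, so the ratios of the 2 copies, over all cells and by class, are descriptions.

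The cells were live CD45+CD31- leukocytes sorted from hand-picked pancreatic islets of 12-week-old female mice, after collagenase perfusion and dispersal without enzymes. One library came from NOD mice (WT NOD), a strain that develops autoimmune diabetes, and 1 from NOD.Cxcl16-/- mice, which lack the chemokine gene Cxcl16 by their label. Both groups carry the NOD background, and the labels give neither the number of animals nor the deleted part of the gene. CD45 marks leukocytes and CD31 endothelium.

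With 1 library per group no difference between genotypes can be tested. Genotype and library cannot be told apart, and every interval below is a 95% interval that covers counting error only. The files held 13859 barcodes and 93553185 UMIs (unique molecules) for WT NOD and 10554 barcodes and 98681133 UMIs for NOD.Cxcl16-/-. After filtering, 10725 and 9325 cells remained, with medians of 3900 and 4915 UMIs, and 30 barcode sequences were shared between the libraries' kept cells. Transcripts of Cxcl16 were counted in the library labelled NOD.Cxcl16-/- too, at 97.7 CPM (UMIs scaled to a library total of 1000000) against 69.9 in WT NOD over all cells and at 536 against 772 in the macrophage gate. Whether the counted stretch lies in the deleted part is not known, so these counts do not check the label.

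Ribosomal proteins assemble with ribosomal RNA into the small subunit, which reads the mRNA, and the large subunit, which forms peptide bonds. Their mRNAs are among the most abundant of resting lymphocytes, and many start with a run of pyrimidines, the 5′ terminal oligopyrimidine (5′ TOP) element, through which growth signals control their translation. The genes have given rise to many processed copies across mammalian genomes, so that a short 3′ read can match a parent gene and a copy almost equally well.

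The copies and their parents are shown first because the largest ratios of the set lie there. Rps18, a small-subunit protein, has 5 exons and lies at chr17:33951999-33956001 on the minus strand (GRCm38, GENCODE M21). Gm10260 is a single exon at chr13:97760072-97760632 on the minus strand and is annotated by GENCODE as protein coding. Their transcripts differed at 5 of 545 aligned bases: T243C, A394C, G428A and G488A in the coding sequence and G534C in the untranslated end, with the base of Rps18 first and positions counted from 1 at the 5′ end of the Rps18 transcript. The stretches below are GENCODE M21 transcript sequence around 2 of these sites, with the differing base in capitals.
Rps18 at 488: tggccgcaggggccGaactgtgggtgtat
Gm10260 at 488: tggccgcaggggccAaactgtgggtgtat
Rps18 at 534: tctgggcctttgctGttaataaatagttt
Gm10260 at 534: tctgggcctttgctCttaataaatagttt

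Rpl41, a very short large-subunit protein, lies at chr10:128548114-128549305 on the minus strand in 4 exons. Gm10076 is a single exon at chr14:105681828-105682211 on the plus strand and is annotated as a long intergenic RNA. They differed at 2 of 383 aligned bases, C317T and G424A, both outside the coding sequence, with the base of Rpl41 first and positions counted from the 5′ end of its transcript. These are the only letters that differ between the 2 reference transcripts within the aligned stretch. The sequence of NOD mice was not examined for either pair.
Rpl41 at 317: caagtaagccagccCgtgcacctacgacg
Gm10076 at 317: caagtaagccagccTgtgcacctacgacg
Rpl41 at 424: agtagacctggaacGtcacctcgccgcga
Gm10076 at 424: agtagacctggaacAtcacctcgccgcga

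Of the 211 windows of 90 bases that fit in the last 300 bases of a parent transcript, 45 (21.3%) held no differing base for Rps18 and Gm10260 and 78 (37.0%) for Rpl41 and Gm10076. Near-identical sequence, at least 98% identity over at least 90 bases within the last 300, was found elsewhere in the GENCODE transcripts for 50 of the 88 genes. Rps2, a small-subunit protein near the mRNA entry, had the most, with 24. For 11 genes such sequence lies in another gene listed in the files. They include Rpl7l1, matched only over 101 bases of Cd9, a gene outside the set, and Gm10076, matched to its parent Rpl41. The values of these genes are uncertain to the extent that the counting split reads between copies.

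Ribosomal protein genes took 27.8% of all UMIs in WT NOD cells and 25.2% in NOD.Cxcl16-/- cells, a difference of -2.62 percentage points. The share followed the cell class more than the library. Among the 12 classes with at least 50 cells in each library it was highest in naive-like CD4 T cells, at 37.3% in WT NOD (100 cells) and 37.4% in NOD.Cxcl16-/- (97 cells), and lowest in macrophages, at 16.3% (50 cells) and 16.4% (154 cells). The mean of both libraries differed by 20.99 points between these classes, while each of the 12 differed by at most 3.92 points between libraries.

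Among these 12 classes the lymphocytes lay above the myeloid cells in both libraries by pooled share. Non-cycling B cells gave 32.0% in WT NOD and 30.4% in NOD.Cxcl16-/-, and CD8 T cells outside the naive and cycling gates gave 31.2% and 30.03%. Cycling CD4 T cells reached 29.6% and 28.1%, other CD4 T cells 27.8% and 26.9%, and cycling CD8 T cells 27.0% and 26.7%. Regulatory T cells, the Foxp3-positive suppressors, gave 24.4% and 23.3%, and NK cells 23.8% and 23.5%. Among dendritic cells, the cross-presenting cDC1 gave 23.0% and 22.3% and the migratory, Ccr7-positive cells 18.4% and 19.8%. By medians over cells the order differed. The cDC1 medians (23.0% and 22.5%) lay above those of regulatory T cells (22.2% and 21.3%) in both libraries. Those of NK cells were 22.5% and 22.6%, below cDC1 in WT NOD and above it in NOD.Cxcl16-/-. Per-cell values spread widely: the middle 50% of cells ran from 25.5% to 35.1% in the other CD8 T cells of WT NOD and from 23.2% to 34.6% in those of NOD.Cxcl16-/-, so neighbouring classes overlapped. Spearman's rho of the 12 class shares between the libraries was 0.99, given as a description over classes that share library and depth.

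**Figure D1:**
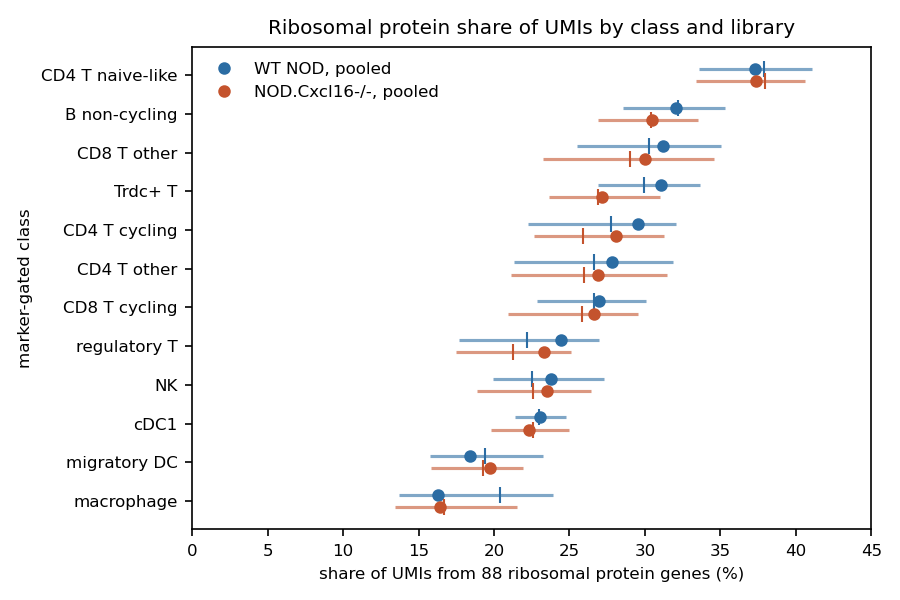
Share of UMIs from the 88 ribosomal protein genes (x axis, percent) in 12 marker-gated classes (y axis) for each library. Dots are pooled shares, ticks are medians over cells and bars are the middle 50% of cells. Naive-like CD4 T cells lie at 37.3% and 37.4%, macrophages at 16.3% and 16.4%.

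Some classes had under 50 cells in a library. Naive-like CD8 T cells gave 37.3% in both libraries (35 and 26 cells). Type 2 innate lymphoid cells gave 33.1% and 31.7% (13 and 41 cells), and cycling B cells 31.4% and 27.9% (23 and 76 cells). Monocytes gave 17.8% and 18.9% (15 and 21 cells), plasmacytoid dendritic cells 18.0% and 19.2% (29 and 32 cells) and cDC2 21.4% and 21.5% (22 and 70 cells). Plasma cells, in which immunoglobulin and T-cell receptor genes took 53.8% and 30.5% of the UMIs, were the lowest of all classes, lymphocyte or myeloid, at 11.5% and 14.3% (6 and 15 cells). Without those genes and the mitochondrial genes in the total, the plasma-cell shares were 25.2% and 20.9%.

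Between the libraries, 9 of the 12 larger classes had the lower pooled share in NOD.Cxcl16-/- with an interval below 0. Migratory dendritic cells had the higher share, by 1.33 points (interval 1.23 to 1.43), and the intervals for naive-like CD4 T cells (-0.13 to 0.29) and macrophages (-0.02 to 0.24) held 0. The median over migratory dendritic cells was 19.4% in WT NOD and 19.3% in NOD.Cxcl16-/-, and the means over cells were 18.7% and 18.8%, a difference of 0.05 points. Macrophage medians were 20.4% and 16.7%, and in WT NOD the deeper 50% of macrophages had a median of 14.6% against 23.6% in the shallower. With the class mix of WT NOD held fixed over the 12 classes, the difference was -1.11 points, against -1.85 with each library's own mix.

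The largest fall was in the T-cell gate with Trdc, the constant gene of the delta receptor chain, from 31.1% (307 cells) to 27.2% (226 cells), a difference of -3.92 points (interval -4.03 to -3.81). The leading genes of this gate included Trdc, Cd163l1 and the gamma-delta receptor genes Trdv4 and Tcrg-C1. They also included the NK-cell genes Klra1, Ncr1, Klra5 and Klra4, which go partly against a gamma-delta T name. The gate is therefore called Trdc+ T here. Within it Trdv4 stood at 92.2 CPM in WT NOD and 162 CPM in NOD.Cxcl16-/-, and Tcrg-C1 at 88.8 and 146 CPM. Cd163l1, a scavenger receptor gene of interleukin-17-type gamma-delta T cells, stood at 144 CPM in WT NOD and 335 CPM in NOD.Cxcl16-/- within the gate. Ncr1, the NK receptor NKp46, stood at 214 and 209 CPM there, against 957 and 873 CPM in the NK gate. The part of this mix in the lower share was not tested.

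Pancreatic hormone transcripts were counted in all 12 classes, most in macrophages of both libraries and in migratory dendritic cells of WT NOD. They took 1.05% of macrophage UMIs in WT NOD and 1.69% in NOD.Cxcl16-/-, led by the insulin genes Ins1 and Ins2, and 0.888% and 0.0393% in migratory dendritic cells, led by Ppy in WT NOD. With these transcripts out of the total, the ribosomal protein shares were 16.5% and 16.7% in macrophages and 18.6% and 19.8% in migratory dendritic cells, in the same order as before.

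The 2 subunits took nearly fixed parts of the total. Small-subunit genes, paralogs included and the Gm copies left out, made up 44.7% to 48.8% of ribosomal protein UMIs over the 12 classes in WT NOD and 45.1% to 48.4% in NOD.Cxcl16-/-, highest in naive-like CD4 T cells in both. Over all cells the 46 main large-subunit genes took 14.8% of all UMIs in WT NOD and 13.4% in NOD.Cxcl16-/-, and the 31 small-subunit genes 12.7% and 11.6%.

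UMI counts from 3′ ends take each transcript once whatever its length, so the levels below carry no length correction. Rps24, a small-subunit protein, was the most abundant gene by the mean of both libraries, at 7836 CPM in WT NOD and 6948 in NOD.Cxcl16-/-. By the same mean Rpl41 followed at 6925 and 6196 CPM, then Rps29 at 7328 and 5629, Rpl13 at 6465 and 6210 and Rps20 at 6506 and 5825. These 5 genes held 12.6% and 12.3% of the ribosomal protein UMIs, so no gene dominated. Of the 77 main genes, 69 exceeded 1000 CPM in both libraries, with a median of 3644 CPM in WT NOD and 3226 in NOD.Cxcl16-/-.

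The lowest main gene was Rpl29, a heparin-binding large-subunit protein, at 90.5 and 69.9 CPM. Next came Rpl23a, which lies at the peptide exit tunnel, at 449 and 483 CPM, Rps15 at 635 and 658, Rpl5, a carrier of the 5S ribosomal RNA, at 677 and 712, and Rpl31 at 739 and 692. The order of levels was nearly the same in both libraries: Pearson's r of log2 CPM over the 77 genes was 0.99, across genes that share the same 2 libraries. The median level was 3610 CPM for the 33 main genes with no near-identical copy found for the transcript end searched. It was 2812 CPM for the 14 with 5 or more, as means of the libraries.

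Some genes outside the symbol rule also encode ribosomal proteins. Fau, which makes a ubiquitin-like fusion with a small-subunit protein, stood at 7544 and 6759 CPM, as high as the top of the set. Rack1, a scaffold on the small subunit, gave 1281 and 1307 CPM.

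**Figure D2:**
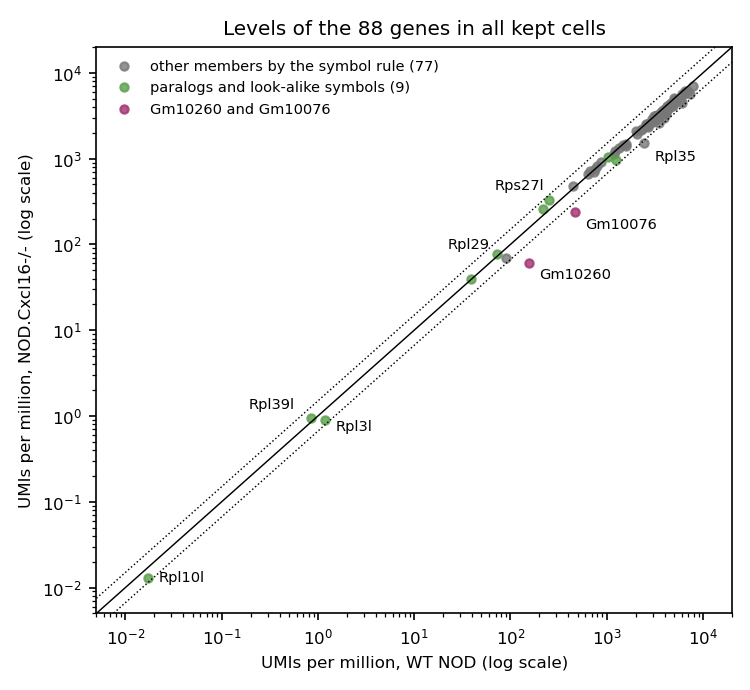
Level of each of the 88 genes in all kept cells of WT NOD (x axis) and NOD.Cxcl16-/- (y axis), in CPM on log scales. The solid line marks equal levels and the dotted lines 1.5-fold differences. Gm10260, Gm10076 and Rpl35 lie below the lower dotted line among the genes with 100 or more UMIs.

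Across all cells, 73 of the 87 genes with at least 100 UMIs had a log2 ratio of NOD.Cxcl16-/- over WT NOD below 0 (1 CPM added to both levels), and Rpl10l, with 1 UMI in each library, was not assessed. The median was -0.11, against 0.01 over all 13212 genes with as many UMIs. The share of those genes below 0 was not counted. Past 1.5-fold, none of the 87 was higher, with 4.77% of all genes past that fold, and 3 were lower, with 1.33% of all genes. The 3 were Gm10260, Gm10076 and Rpl35. The first and second were chosen with these values known.

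The median ratio differed by class. It was 0.13 in migratory dendritic cells, where 67 of 84 genes lay above 0, and -0.15 in Trdc+ T cells, where 77 of 84 lay below. The medians over all genes with at least 100 UMIs were 0.02 and 0.10 there. In the other 10 classes the median of the set ran between -0.05 and 0.04. That over all genes ran between -0.02 and 0.07. The share of all genes above or below 0 was not counted. The value over all cells also holds cells in no class and depends on the class mix of each library. Rpl13 lay at -0.06 over all cells but below 0 in only 1 of 12 classes, and the reason was not tested.

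Gm10260 stood at 155 CPM in WT NOD and 61.0 CPM in NOD.Cxcl16-/-, a log2 ratio of -1.33 (interval -1.39 to -1.29). Its parent Rps18 stood at 3166 and 2798 CPM, a log2 ratio of -0.18. Gm10260 thus took 4.66% of the UMIs of both genes in WT NOD (interval 4.57 to 4.75) and 2.13% in NOD.Cxcl16-/- (2.07 to 2.20). The part was lower in NOD.Cxcl16-/- in 12 of 12 classes, from 4.35% to 5.56% in WT NOD and from 1.66% to 2.87% in NOD.Cxcl16-/-, with no overlap of the class values.

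Gm10076 stood at 463 and 239 CPM, a log2 ratio of -0.95 (interval -0.98 to -0.93), and Rpl41 at a log2 ratio of -0.16. The copy took 6.27% of the UMIs of both in WT NOD (6.20 to 6.35) and 3.72% in NOD.Cxcl16-/- (3.66 to 3.77). Again 12 of 12 classes had the lower part in NOD.Cxcl16-/-, from 5.02% to 6.96% against 3.56% to 4.09%, with no overlap. Class values of some other copies, given below, did not overlap either. Classes are parts of the same 2 libraries and are not replicates.

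In the ratios by class, Gm10260 was lower past 1.5-fold in 10 of the 10 classes with at least 100 UMIs and Gm10076 in 11 of 12, all but macrophages. The copies were chosen with earlier results of these libraries known and the classes are parts of those libraries, so these counts are descriptions. The share of all genes lower by as much was 1.76% in the other CD8 T cells and 1.49% in cycling CD8 T cells. For CD4 T cells it was 2.47% in naive-like, 1.21% in other and 1.43% in cycling cells. The figure was 1.51% in regulatory T, 1.2% in Trdc+ T, 2.54% in NK and 1.15% in non-cycling B cells. In myeloid classes it was 3.52% for cDC1, 4.05% for migratory dendritic cells and 7.97% for macrophages.

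Other parent and copy genes went the opposite way. Gm2000, a gene with 99.7% identity to Rpl35 over the end of the transcript, took 10.6% of the UMIs of both in WT NOD and 19.9% in NOD.Cxcl16-/-. Rps27rt, a single-exon copy of Rps27 identical to it over the last 300 bases, took 3.47% and 5.44%. Rpl10-ps3 took 2.48% and 4.97% of its UMIs with Rpl10, Rpl9-ps6 1.53% and 2.61% with Rpl9, and Gm11361, a further gene with near identity to Rps18, 2.79% and 3.92%. For each of these 5 genes the part was higher in NOD.Cxcl16-/- in 12 of 12 classes, so 2 of these 7 copies went down and 5 up in every class. The class values of Gm2000 did not overlap between libraries (9.59% to 11.3% in WT NOD, 19.0% to 21.8% in NOD.Cxcl16-/-). Those of Rps27rt, Rpl10-ps3 and Rpl9-ps6 did not overlap either, while those of Gm11361 did (2.04% to 4.04% and 3.00% to 4.59%). A further copy, Rpl36a-ps1, took 0.909% and 1.36% of its UMIs with Rpl36a and was lower in 2 of 12 classes. From which of the near-identical transcripts the UMIs came was not tested.

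**Figure D3:**
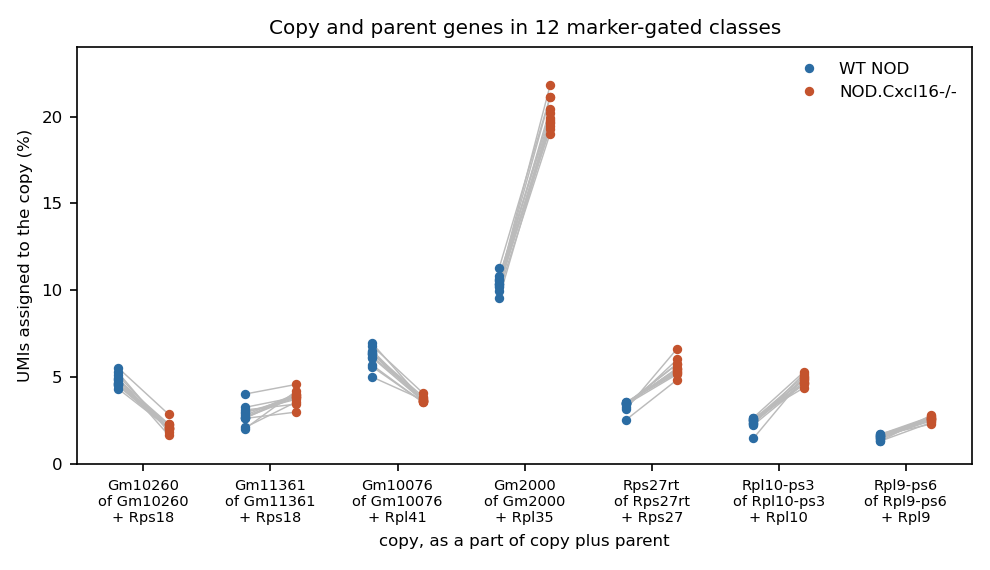
UMIs assigned to a copy as percent of copy plus parent (y axis) for 7 copies (x axis) in WT NOD and NOD.Cxcl16-/-. Each dot is 1 of 12 marker-gated classes and grey lines join the same class. Gm10260 and Gm10076 go down in every class and the other 5 copies go up, Gm2000 from about 10.6% to 19.9% over all cells.

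Copies and parents were also summed. Where copies are a small part the sums lie close to the parents, which does not hold for Rpl35 with Gm2000, given below. Rps18 with Gm10260 and Gm11361 gave 3412 CPM in WT NOD and 2973 in NOD.Cxcl16-/-, a log2 ratio of -0.20. Rpl41 with Gm10076 gave 7388 and 6435 CPM, also -0.20. Rpl10 with Rpl10-ps3 gave -0.05 and Rpl9 with Rpl9-ps6 -0.13.

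Rpl35, a large-subunit protein beside the exit tunnel, was the main gene with the largest ratio. It stood at 2462 CPM in WT NOD and 1539 in NOD.Cxcl16-/-, a log2 ratio of -0.68 (interval -0.69 to -0.67). It was below 0 in 12 of 12 classes, from -0.87 in Trdc+ T cells to -0.40 in macrophages, and lower past 1.5-fold in 7. In Trdc+ T cells Rpl29 was lower past the fold too, at -0.87. With Gm2000 added to Rpl35, the values were 2754 and 1923 CPM, a log2 ratio of -0.52, within 1.5-fold.

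Rps27, a zinc-binding small-subunit protein, stood at 6046 and 4494 CPM (log2 ratio -0.43), Rpl38, a large-subunit protein, at 3481 and 2624 (-0.41) and Rps28 at 3911 and 2964 (-0.40). All 3 were within 1.5-fold over all cells and below 0 in 12 of 12 classes. With Rps27rt added, Rps27 gave -0.40. Rps29, Rpl36 and Rpl39 also lay below 0 in 12 of 12 classes, at -0.38, -0.30 and -0.28 over all cells. The share of all genes that lay below 0 in every class was not counted, here or for Rpl35.

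Of these genes, Rps27, Rpl38, Rps28, Rps29 and Rpl39 have at most 300 coding bases and Rpl36 has 318. Among the 9 main genes with at most 300 coding bases the median log2 ratio was -0.28, against -0.12 for the 38 with 301 to 500 bases, -0.08 for the 21 with 501 to 800 and -0.12 for the 9 longer ones. Pearson's r with coding length over the 77 genes was 0.43 and Spearman's rho 0.40, across genes of the same 2 libraries. Within classes r was positive in 12 of 12, from 0.30 in macrophages to 0.57 in NK cells. Rpl41, with 78 coding bases the shortest, lay at -0.16, and Rpl35, with 372, is not among the 9. For 297 other genes at 300 CPM or more r was 0.11, with a median of -0.06 for those of at most 300 coding bases and 0.03 for those above 800. Within classes the other genes' r ran from 0.05 in NK and regulatory T cells to 0.42 in cycling CD4 T cells, where it exceeded the 0.33 of the main genes, and the difference between the 2 sets was not tested.

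**Figure D4:**
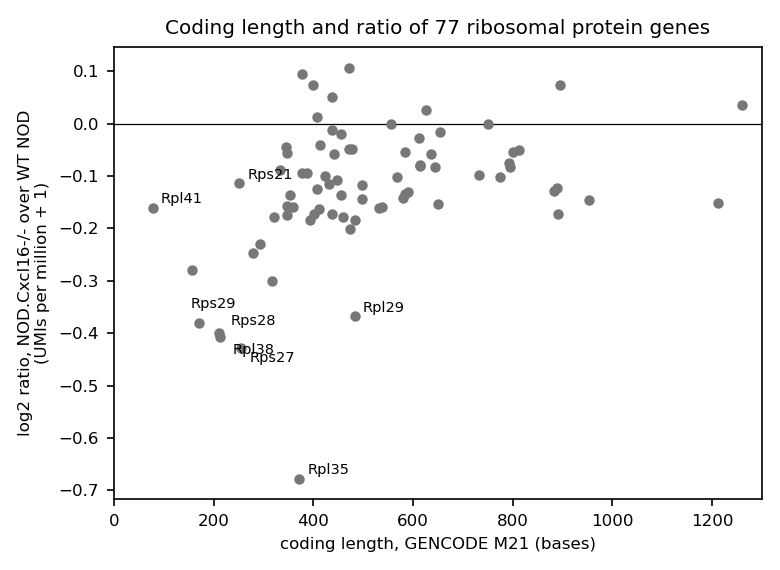
Log2 ratio of NOD.Cxcl16-/- over WT NOD in all kept cells (y axis, CPM plus 1) against coding length in bases (x axis) for the 77 main genes. Rps29, Rps28, Rpl38 and Rps27 lie low at the left, Rpl35 is lowest at -0.68, and Rpl41 is the shortest.

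Within the ribosomal protein total most genes kept a steady part across classes. The highest class over the lowest, as means of both libraries, was a median of 1.44-fold over the 84 genes with at least 50 CPM over all cells (mean of the libraries), and 52 were under 1.5-fold. Rps27l, a paralog of Rps27 known as a p53 target, stood apart at 11.3-fold. It took 0.238 of 1000 ribosomal protein UMIs in naive-like CD4 T cells of WT NOD and 0.300 in those of NOD.Cxcl16-/-, and 3.39 and 2.72 in migratory dendritic cells. Macrophages gave 2.02 and 2.002, cDC1 1.67 and 2.39, and cycling CD8 T cells 1.59 and 1.86, against 0.555 and 0.654 in the other CD8 T cells. Over all cells its level was 251 and 328 CPM, a log2 ratio of 0.39 within 1.5-fold, while in migratory dendritic cells the ratio was -0.22.

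Rps27 ran the other way. It took 29.5 and 25.5 of 1000 ribosomal protein UMIs in naive-like CD4 T cells and 27.9 and 23.5 in non-cycling B cells, but 11.8 and 10.6 in cycling CD4 and 12.0 and 10.1 in cycling CD8 T cells. Rps27rt followed it, from 1.06 and 1.56 in naive-like CD4 T cells to 0.436 and 0.584 in cycling CD8 T cells. It was higher past 1.5-fold in NK cells, macrophages and cDC1, where 2.34%, 9.24% and 4.38% of all genes were. In the other 9 classes no gene of the set was higher past the fold. The share of all genes that were was 1.4% in the other CD8, 1.96% in cycling CD8, 3.02% in naive-like CD4, 1.12% in other CD4 and 5.11% in cycling CD4 T cells. It was 2.67% in regulatory T, 4.72% in Trdc+ T, 1.08% in non-cycling B and 4.93% in migratory dendritic cells.

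Rpsa, the small-subunit protein also known as the laminin receptor precursor, took 29.3 and 29.0 of 1000 ribosomal protein UMIs in cycling CD8, 28.9 and 29.6 in cycling CD4 and 14.3 and 14.9 in macrophages. Rpl12, a protein of the stalk base, separated lymphoid from myeloid classes: 7.30 and 8.10 in naive-like CD4 T cells, 4.88 and 4.93 in NK cells and 3.20 and 3.75 in migratory dendritic cells. For each of these 5 genes the order of the highest and lowest class held in both libraries.

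**Figure D5:**
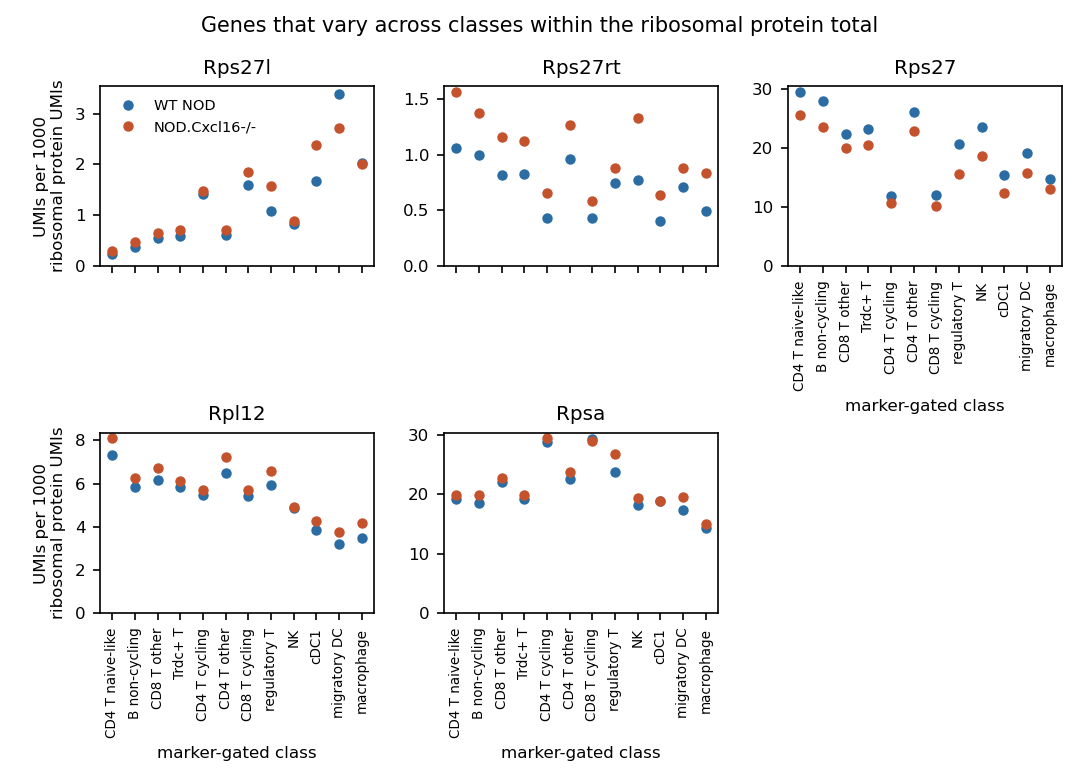
UMIs of 5 genes per 1000 ribosomal protein UMIs (y axis, separate scales) in 12 marker-gated classes (x axis), 1 dot per library. Rps27l is lowest in naive-like CD4 T cells and highest in migratory dendritic cells, while Rps27 is highest in naive-like CD4 T cells and low in cycling T cells.

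The other paralogs fell into expressed and near-silent genes. Rpl22l1, the paralog of Rpl22, took 34.7% of the UMIs of both genes in WT NOD and 30.4% in NOD.Cxcl16-/-, lower in 12 of 12 classes, and its own log2 ratio was -0.38. Its part ran from 23.9% in cDC1 to 40.3% in cycling CD4 T cells of WT NOD. Rpl36al, an intronless paralog of Rpl36a, took 39.9% and 42.8%, up to 50.8% in macrophages of WT NOD and 53.7% in cDC1 of NOD.Cxcl16-/-. Rpl7l1, a relative of Rpl7, stood at 71.8 and 78.2 CPM. Rps19bp1, which binds Rps19 and is not itself a ribosomal protein, stood at 38.6 and 40.0 CPM.

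Of the tissue-restricted paralogs, the muscle gene Rpl3l was at 1.19 and 0.894 CPM, Rpl39l at 0.847 and 0.959 CPM, and the testis gene Rpl10l had 1 UMI in each library.

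Related gene lists were measured beside the set. Of 18 translation factors and other 5′ TOP genes, which include Fau and Rack1, none passed 1.5-fold in either direction over all cells, with a median log2 ratio of -0.04 and 2.84% of UMIs in WT NOD against 2.71% in NOD.Cxcl16-/-. Like the ribosomal protein genes, they took most in naive-like CD4 T cells (3.52% and 3.60%) and least in macrophages (1.88% and 1.91%) among the 12 classes. Within classes their median reached 0.20 in migratory dendritic cells and 0.17 in NK cells, against 0.13 and -0.01 for the ribosomal protein genes. None of 16 ribosome assembly genes passed the fold over all cells (median 0.09). By class, they were higher past the fold in regulatory T cells (Rrs1, 1 of 12 measured, with 2.67% of all genes) and migratory dendritic cells (Fbl, Nop58 and Nop16, 3 of 6 measured, with 4.93% of all genes) and in none of the other 10 classes. The 78 mitochondrial ribosomal protein genes had a median of 0.00 and the 13 mitochondrially encoded genes of 0.09, none past the fold over all cells.

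RefSeq start sites (GRCm38.p6) were found for 57 of the main genes. A C followed by at least 5 pyrimidines began within 2 bases of the annotated start, on the gene's strand, in 20 of them (35.1%), against 6.73% of 27025 genes. A match describes these letters only.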

How the data were processed

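The deposited files hold raw UMI counts per gene and barcode for 2 libraries, made with Cell Ranger 7.0.1 per the file headers and with mm10 per the submitters' processing notes. Annotation version, read length and intron setting are not given in the sources used here. Barcodes with under 500 genes (1582 and 311), over 10% mitochondrial UMIs (53 and 84) or top doublet scores (1537 and 891) were left out. The number of doublets removed was set at 0.8% per 1000 barcodes, not estimated. Cells were gated by markers, and 963 and 972 cells in several gates, 2339 and 1555 T cells not split further and 893 and 653 in no gate entered no class. Counts were summed per library and class and scaled to CPM. Shares have exact Clopper-Pearson intervals at the 95% level, covering counting error only. A fold call needed 1.5-fold and 100 UMIs over both libraries, and no p-value was computed. The fold rule and gates were tested on simulated data.

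Copies were found with BLAST 2.17.0 against GENCODE M21, in which 32158 of the 32285 gene IDs occur. Python 3.11.15, numpy 2.4.6, scipy 1.17.1 and scikit-learn 1.9.0 were used. The rule's "-ps" was read to include numbered symbols. Named genes were the 2 copies with their parents, every paralog, the 5 highest and 5 lowest main genes, the 6 that spread most across classes, the 6 largest ratios and genes outside the rule that encode ribosomal proteins. Some genes that this rule names are not reported here. Rps29, Rpl36, Rpl39 and the further copies were named after their values were seen. Members, lists and rules were chosen with earlier results of these data known.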

Additional observations from a re-analysis of the deposited data

Results flagged for a closer look

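Migratory dendritic cells stood out because the pooled ribosomal protein share was higher in NOD.Cxcl16-/- by 1.33 points, while 9 other classes with at least 50 cells per library had it lower, with counting intervals off 0 on either side. The gate held 86 and 153 cells. The difference between classes was not tested, since there is 1 library per group, and the cell medians were 19.4% and 19.3%. The share there was higher in NOD.Cxcl16-/- under each alternative run, by 0.05 points as a mean over cells. Among the ribosomal protein genes of these cells, 67 of 84 had a log2 ratio above 0. Their median was 0.13, against 0.02 over all genes with at least 100 UMIs there, and the share of all genes above 0 was not counted. Of the classes below that cell number, plasmacytoid dendritic cells were higher by 1.16 points, monocytes by 1.08 and plasma cells by 2.77. Others were lower, with differences of -1.39 points in type 2 innate lymphoid cells and -3.48 in cycling B cells. The intervals for cDC2 and naive-like CD8 T cells held 0. Without immunoglobulin, T-cell receptor and mitochondrial genes in the total, the plasma-cell share was lower in NOD.Cxcl16-/-, at 20.9% against 25.2%.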

How the results depend on the processing

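The share difference over all cells, the class gap and both copies' ratios kept their direction under each alternative run, but single classes did not: as a mean over cells macrophages differed by -1.15 points and naive-like CD4 T cells by -0.64. The share difference over all cells was -1.95 points with doublet scores not used, -2.09 as a mean over cells, -2.01 in cells thinned to 2000 UMIs, -2.49 without mitochondrial, immunoglobulin and T-cell receptor genes, -2.59 without the 2 copies and, chosen after seeing the data, -1.85 in the 12 larger classes. The gap between the highest and lowest class was 20.6 points with 1 more marker per gate, 20.8 from 200 genes per cell, 18.2 at up to 5% mitochondrial UMIs, 18.5 after thinning and also as a mean over cells, 19.9 without doublet scores and 21.3 without the genes above. At up to 5% mitochondrial UMIs and after thinning, migratory dendritic cells were the lowest of the classes left, 11 and 10. Of the classes, 1 of 11 was higher in NOD.Cxcl16-/- at up to 5% mitochondrial UMIs, 1 of 10 after thinning and 1 of 12 by means over cells, against 3 of 12. The log2 ratio of Gm10260 was -1.22 after thinning, -1.21 with 10 CPM added and -1.26 in the larger classes, and that of Gm10076 was -0.98 after thinning and -1.03 as a mean over cells. Past the fold lay 1 gene without the copies, 1 at a fold of 2 and 5 with numbered -ps symbols kept, 2 of them higher. The cause of these moves was not tested beyond what each setting changes. No paired analysis was possible because each group has 1 library.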
